A study of Mus musculus with 6 samples.

Results

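Mitochondrial solute carriers and uncoupling proteins were examined in mouse livers that lack Cpt2 in hepatocytes. The members were taken by name from the array annotation, as genes whose symbol starts with Slc25a together with the uncoupling protein genes Ucp1, Ucp2 and Ucp3. Slc25a20, Slc25a17, Slc25a13 and Slc25a15 were left out. A member needed a probe set that names it alone, a probe set being 1 row of the deposited values, and 44 of the 20242 genes so measured met these conditions, 1 of them the pseudogene Slc25a5-ps. Slc25a5, the ADP/ATP carrier isoform of most tissues, was named only together with another gene and is not analysed here. Ucp2 is not analysed here either, since no probe set was assigned to it alone. The rule uses names and no measured value, though it was set with earlier results of these data known.

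RNA of 6 male mice of strain C57BL/6 was labelled with biotin and hybridised to 1 array per liver. The 3 controls were Cpt2f/f, with loxP-flanked Cpt2 alleles and no Cre, and the 3 knockouts were Albumin-Cre; Cpt2f/f. The albumin promoter drives Cre in hepatocytes, so the other cells of the liver keep Cpt2. Food had been withheld from all 6 mice for 24 hours. The labels list ages of 9 to 11 weeks for controls and 12 to 14 weeks for knockouts, while the growth protocol gives 9 weeks throughout. The listed ages rise in steps of 1 week in sample order, and which of these sources is right cannot be told here. Listed age and genotype run together.

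The SLC25 family and the uncoupling proteins share a fold of paired membrane helices and sit, with few exceptions, in the inner mitochondrial membrane. They exchange nucleotides, phosphate, carboxylates, amino acids, cofactors and ions between matrix and cytosol. In liver this traffic feeds ATP export, urea synthesis, gluconeogenesis and citrate export for lipid synthesis. Cpt2 encodes carnitine palmitoyltransferase II, which acts on the matrix side of the same membrane, where acylcarnitines that have crossed it are turned back into acyl-CoA for oxidation. The comparison asks how liver gene expression in a fast differs when hepatocytes lack this step.

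Cpt2 signal fell to 50.5% of the control level (log2 fold change -0.99, SE 0.11, adjusted p = 0.0013 by limma). With listed age as a covariate the log2 fold change was -1.24 (SE 0.22, adjusted p = 0.0753). Pearson's r between arrays, over genes that are not independent replicates, was 0.985 to 0.989 within a genotype and 0.969 to 0.977 across genotypes. Of all 20242 genes, 8.24% passed an adjusted p of 0.05, 4.74% as higher and 3.49% as lower in knockouts. Control and knockout values did not overlap in 25.1%. All log2 values below are RMA expression values, and a fold change is always knockout against control. Errors of fold changes are standard errors of limma's moderated test, and p-values are adjusted over all 20242 genes. In whole liver, a change in the number of cells of a type and a change in RNA per cell cannot be told apart.

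Of the 44 members, 3 rose, 4 fell and 37 did not pass, a share called of 15.9% beside 8.24% over all genes. The carriers that rose were Slc25a30 (3.10-fold), Slc25a24 (2.75-fold) and Ucp3 (1.76-fold). Those that fell were Slc25a23, to 34.1% of the control signal, Slc25a48 to 48.8%, Slc25a45 to 57.2% and Slc25a35 to 58.6%. The groups did not overlap in 18 members, 40.9% beside 25.1% over all genes. These were the 7 that passed and 11 of the 37 that did not (29.7%). Of those 11, 6 were higher and 5 lower in knockouts. The median log2 fold change of the members was 0.04, beside -0.01 over all genes. The median of the sizes without sign was 0.22 for members and 0.12 for all genes. Members were bright, with 29 above the median of gene means and 22 above the 75th percentile. When only genes above the median level were fitted, 2013 of 10121 genes passed, and of those 29 members 3 were higher and 4 lower. These are not the same 7 members. Of the 7 above, 5 passed in this fit, while Slc25a35 and Ucp3 lay below the median level. Slc25a28 (higher) and Slc25a38 (lower) passed in this fit but not in the fit over all genes. Whether level accounts for the shares and sizes above was not tested. Without adjustment, 16 of the 44 members had a p under 0.05 in the fit over all genes. No share over all genes was counted at this unadjusted threshold, here or for the gene lists below. The members that passed in the fit over all genes came from 4 of the substrate groups. In that fit no member passed among the carriers of ADP/ATP, phosphate, carboxylates, amino acids, cofactors, pyrimidine nucleotides or iron.

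**Figure D1:**
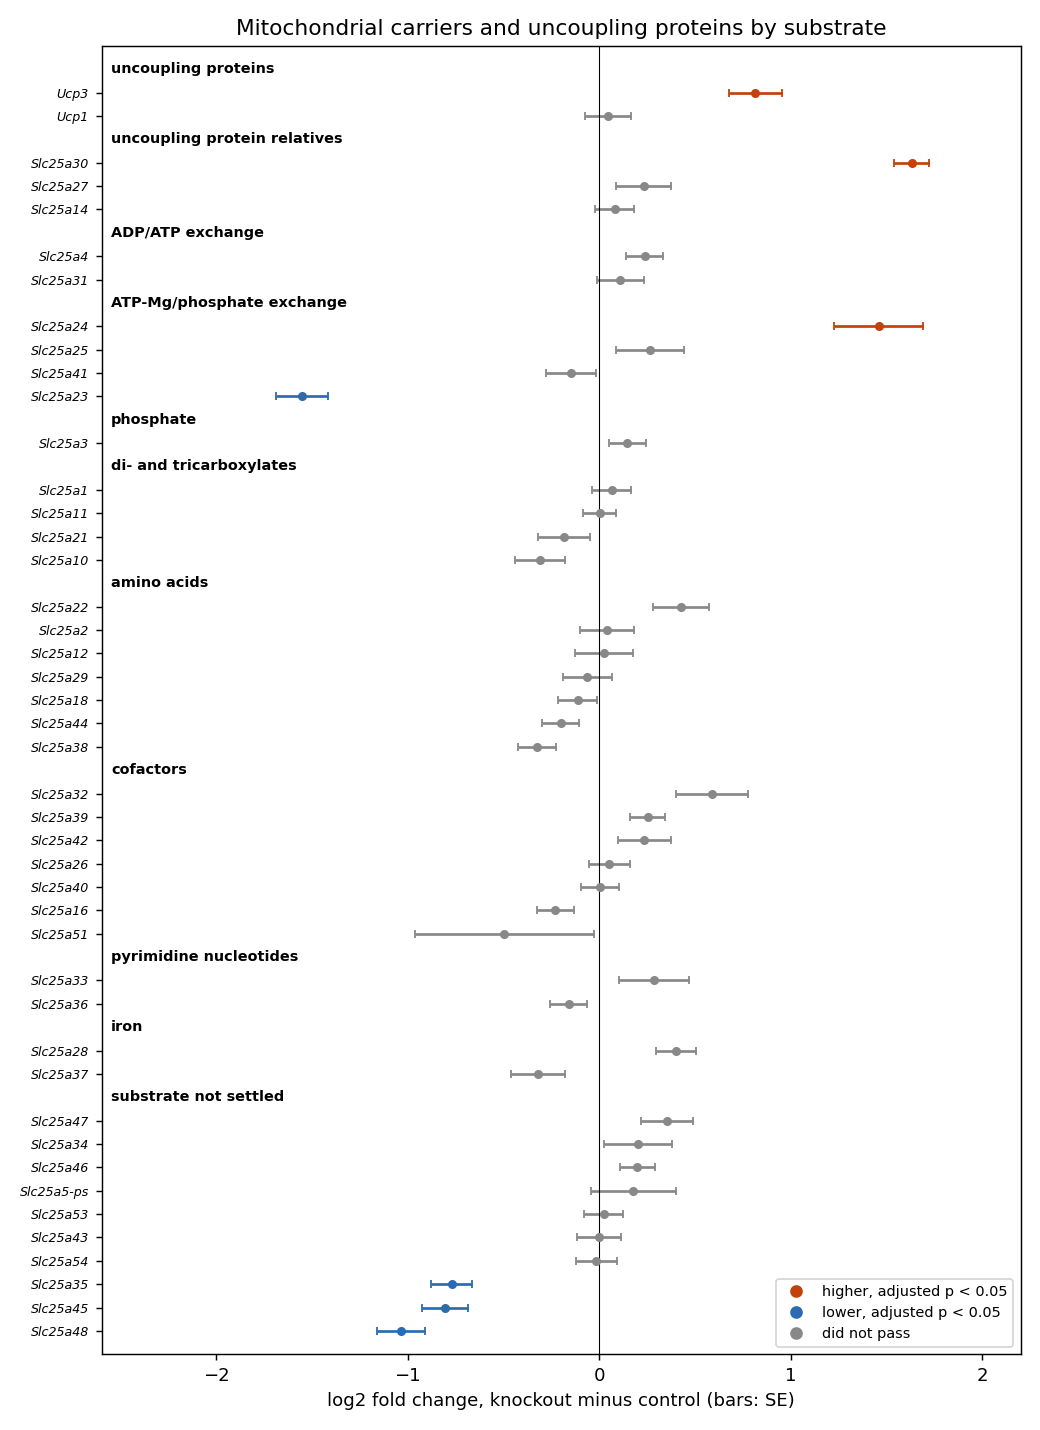
Log2 fold change (knockout minus control, x axis) of the 44 members, grouped by substrate, with bars for the SE of the moderated test (n = 3 mice per group). Red points rose and blue points fell at adjusted p under 0.05, and grey points did not pass. The ATP-Mg/phosphate group holds both the largest decrease (Slc25a23, -1.55) and an increase of 1.46 (Slc25a24).

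**Figure D2:**
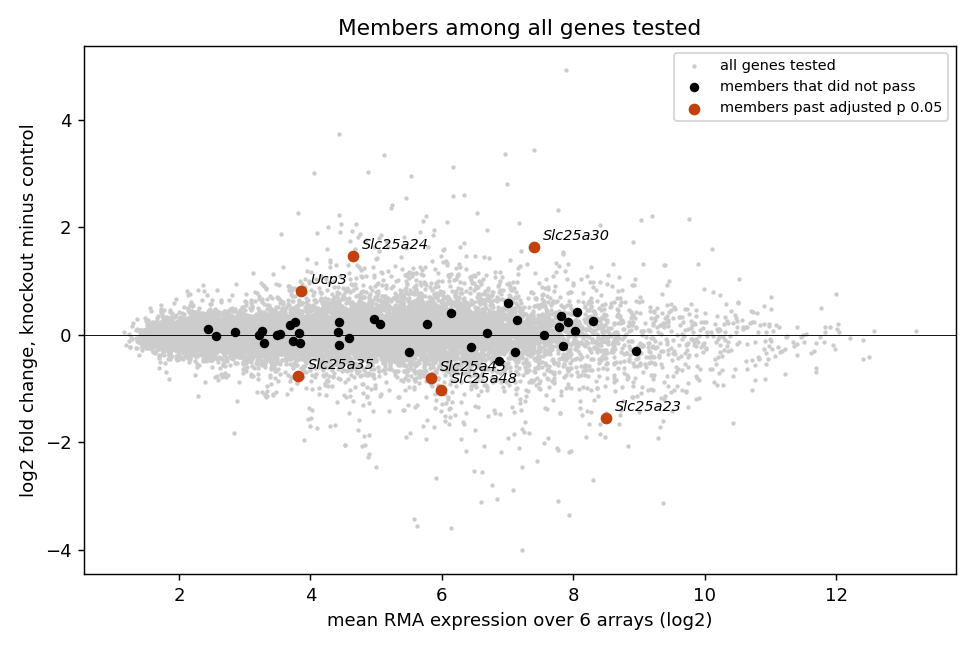
Log2 fold change (y axis) against mean RMA expression over the 6 arrays (x axis, log2) for all 20242 genes in light grey, with the 37 members that did not pass in black and the 7 that passed in red. Slc25a35 and Ucp3 have means of 3.82 and 3.85, below the median of gene means at 4.12.

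Among the uncoupling proteins and their relatives, Slc25a30 and Ucp3 rose and 3 members did not pass. Slc25a30 (KMCP1) is a close relative of the uncoupling proteins, first described in kidney. Its log2 values were 6.62, 6.63 and 6.50 in controls and 8.25, 8.18 and 8.21 in knockouts. The 3 knockout livers lay together, 1.63 above the control mean (SE 0.09, adjusted p = 6.5e-05), with SDs of 0.07 in controls and 0.03 in knockouts.

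Ucp3 is best known from skeletal muscle and brown fat, where it rises with fasting and fatty acid supply. In liver it read 3.32, 3.54 and 3.47 in controls and 4.004, 4.49 and 4.28 in knockouts. Each knockout was above each control, with a log2 fold change of 0.81 (SE 0.14, adjusted p = 0.0087). These are dim values, a range in which RMA compresses differences. Ucp1, the proton channel of brown fat, did not pass and its groups overlapped, at 2.61, 2.97 and 2.91 in controls and 2.81, 2.99 and 2.83 in knockouts. Its difference of 0.05 (SE 0.12) turned to -0.06 without control replicate 1, to -0.01 without knockout replicate 2 and to -0.19 with listed age as a covariate.

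The brain-enriched relatives Slc25a14 (0.08, SE 0.10) and Slc25a27 (0.23, SE 0.15) also overlapped between groups. Markers of skeletal muscle and brown fat, tissues named above for Ucp3 and Ucp1, did not pass by limma. The counts were 0 of 3 measured for skeletal muscle (Acta1, Ckm and Mylpf) and 0 of 4 for brown adipocytes. At an unadjusted p under 0.05 there were 0 of either. The marker lists held no genes for brain or kidney. The mean log2 value of the muscle markers ran from 3.78 to 3.88 in controls and from 3.59 to 4.03 in knockouts. With listed age as a covariate Slc25a30 kept its call (1.74, adjusted p = 0.0207) and Ucp3 did not (0.49, adjusted p = 0.703). When every probe set of the table was fitted together, which changes both the adjustment and the variance prior, the SE of Ucp3 was 0.17 and it did not pass (adjusted p = 0.175).

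**Figure D3:**
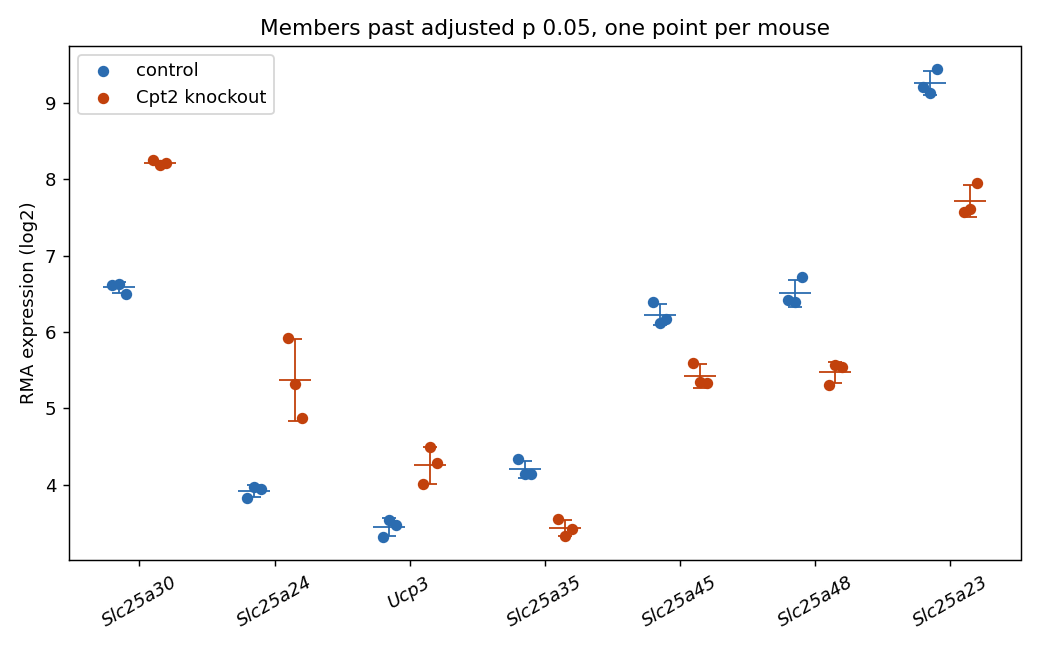
RMA expression (log2, y axis) of the 7 members past adjusted p 0.05, 1 point per mouse, controls in blue and knockouts in red, with the mean and SD of 3 mice. No control point lies within the knockout range for any of the 7, and the knockout points of Slc25a24 spread most, from 4.87 to 5.93.

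The 3 members that rose each had 1 promoter window in the RefSeq-based table, and the bases upstream of their starts are shown because these genes moved in the same direction. The windows are of build GRCm38.p6, on the + strand for Ucp3 and Slc25a24 and the - strand for Slc25a30, each covering the 250 bases before the annotated start. Capitals mark the motifs that were found.
Slc25a30 promoter, chr14:75787038-75787287: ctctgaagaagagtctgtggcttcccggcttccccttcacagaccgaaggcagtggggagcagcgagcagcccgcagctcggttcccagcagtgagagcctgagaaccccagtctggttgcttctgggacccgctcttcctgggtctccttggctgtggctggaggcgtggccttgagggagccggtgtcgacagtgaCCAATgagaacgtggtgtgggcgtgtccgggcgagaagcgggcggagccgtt
Ucp3 promoter, chr7:100472741-100472990: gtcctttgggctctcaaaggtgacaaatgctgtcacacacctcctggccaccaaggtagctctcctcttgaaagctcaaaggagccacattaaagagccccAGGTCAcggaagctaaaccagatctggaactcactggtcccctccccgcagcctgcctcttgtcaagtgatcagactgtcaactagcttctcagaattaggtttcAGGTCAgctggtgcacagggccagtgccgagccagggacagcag
Slc25a24 promoter, chr3:109122899-109123148: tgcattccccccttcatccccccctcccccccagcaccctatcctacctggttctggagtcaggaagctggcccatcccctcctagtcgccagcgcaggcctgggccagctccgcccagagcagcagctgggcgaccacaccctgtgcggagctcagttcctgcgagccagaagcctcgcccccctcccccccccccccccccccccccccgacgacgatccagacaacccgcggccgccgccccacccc

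Both strands were searched for AGGTCA, a hexamer that many nuclear receptors bind, and for its direct repeat with 1 base between (DR1, AGGTCANAGGTCA), the element of PPARA and its partner RXR, which contains the hexamer. The Ucp3 window holds the hexamer at 149 to 144 and at 44 to 39 bases before the start, and the windows of Slc25a30 and Slc25a24 hold none. Of the members that fell, Slc25a45 has the hexamer in its window and Slc25a23 has CCAAT. The hexamer was found in 14.0% of all 32851 windows and in 6 of 42 windows of members. The full repeat was in 11 of all windows and in 0 of the 42. The Slc25a30 window holds CCAAT, a common promoter element, at 52 to 48 bases before the start. On either strand CCAAT was in 33.9% of all windows, in 19 of the 42 windows of members and in 3 of the 7 windows of members that passed. Those 7 windows belong to 6 genes, since Slc25a23 has overlapping windows. The windows with CCAAT are that of Slc25a30 and those of Slc25a23, which share the same CCAAT site. Further motifs were searched and were absent from the windows of the members that passed. These were TGATGNAA, bound by ATF4 with a C/EBP partner, and the CREB element TGACGTCA. TGATGNAA was in 3.45% of all windows and 0 of the 42 of members, and TGACGTCA in 1.55% and 2 of the 42. A window was available for 33 of the members and 6 of those that passed. A match is a run of letters and not a measured binding site.

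Of the 4 ATP-Mg/phosphate carriers, 1 fell, 1 rose and 2 did not pass. These proteins (SCaMC), calcium-regulated except for Slc25a41, load or unload the matrix with adenine nucleotides in exchange for phosphate. They so set the size of its nucleotide pool. Slc25a23 (SCaMC-3), the form best studied in liver, read 9.22, 9.14 and 9.44 in controls and 7.57, 7.62 and 7.96 in knockouts. The highest knockout was 1.18 log2 units below the lowest control, and the mean fell by 1.55 (SE 0.14, adjusted p = 0.000431). Slc25a24 (SCaMC-1), a form abundant in proliferating and tumour cells, moved the other way, from 3.82, 3.97 and 3.94 in controls to 5.93, 5.32 and 4.87 in knockouts.

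The increase of Slc25a24 was 1.46 (SE 0.23, adjusted p = 0.00662), and its SD was 0.53 in knockouts against 0.08 in controls. Leaving out 1 array at a time gave 1.18 to 1.71, with the call kept each time. Slc25a25 (SCaMC-2) overlapped between groups, at 7.30, 6.90 and 6.81 in controls and 6.94, 7.47 and 7.40 in knockouts (0.27, SE 0.18, adjusted p = 0.496). Slc25a41, a shorter relative without the calcium-binding part, differed by -0.15 (SE 0.13) at dim values. With listed age as a covariate Slc25a23 fell by 2.01 (adjusted p = 0.0219), while the difference of Slc25a24 was 2.17 and did not pass (adjusted p = 0.0977). Over every probe set the adjusted p was 0.0304 for Slc25a23 and 0.123 for Slc25a24.

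Of 8 macrophage markers measured, Gpnmb (log2 fold change 3.35) and Cd68 (2.32) rose, Marco fell by 0.52 and the other five, among them Adgre1 (-0.41) and Clec4f (-0.28), did not pass. At an unadjusted p under 0.05, 2 were higher and 4 lower, and the median log2 fold change of the 8 was -0.31, with 6 below 0. The mean log2 value of the 8 markers, in which Gpnmb and Cd68 are the members above 0 in fold change, was 5.99 to 6.42 in controls and 6.53 to 6.83 in knockouts. Of 6 hepatocyte markers measured 2 fell, Alb (log2 fold change -0.69) and Ttr (-0.51). Their part in the difference of Slc25a24 or of any other member was not tested. No marker passed among the 4 endothelial, 5 stellate, 3 cholangiocyte, 4 neutrophil, 3 lymphocyte and 3 erythroid genes measured, and 1 cholangiocyte gene had an unadjusted p under 0.05.

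Carriers with no settled substrate gave 3 of the 4 decreases, with 7 of the 10 members of the group not passing. Slc25a48 has been linked to choline import into mitochondria by studies of human genes and cells. It read 6.42, 6.40 and 6.72 in controls and 5.31, 5.57 and 5.54 in knockouts, a fall by 1.04 (SE 0.13, adjusted p = 0.00187). Slc25a45 read 6.39, 6.12 and 6.18 in controls and 5.60, 5.34 and 5.33 in knockouts (-0.81, SE 0.12, adjusted p = 0.00489). Slc25a35 read 4.33, 4.14 and 4.14 in controls and 3.55, 3.33 and 3.42 in knockouts (-0.77, SE 0.11, adjusted p = 0.00347). The lowest control stood above the highest knockout by 0.83 log2 units for Slc25a48, 0.52 for Slc25a45 and 0.59 for Slc25a35.

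These 3 decreases lost their calls with listed age as a covariate, Slc25a48 narrowly (-1.43, adjusted p = 0.0583), Slc25a45 (-0.44, adjusted p = 0.635) and Slc25a35 (-0.53, adjusted p = 0.499) by more. Over every probe set their adjusted p-values were 0.0777, 0.14 and 0.126. Among the rest of the group, Slc25a47, a carrier found mainly in liver, was at 7.63, 7.85 and 7.43 in controls and 7.90, 7.90 and 8.17 in knockouts. Its groups did not overlap, yet it did not pass (0.35, SE 0.14, adjusted p = 0.189). Slc25a46, a carrier relative of the outer membrane that takes part in mitochondrial shape, was likewise higher without overlap and without passing (0.20, SE 0.09, adjusted p = 0.285). Slc25a34, Slc25a43, Slc25a53, Slc25a54 and the pseudogene Slc25a5-ps overlapped between groups, with log2 fold changes of -0.02 to 0.20.

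Of the exchangers that serve oxidative phosphorylation, those analysed did not pass, and Slc25a5, the ADP/ATP carrier isoform of most tissues, is not among them. Slc25a4 (ANT1), the ADP/ATP carrier of heart and muscle, read 4.29, 4.26 and 4.41 in controls and 4.49, 4.58 and 4.601 in knockouts. Although the groups did not overlap, the difference of 0.24 (SE 0.09) did not pass (adjusted p = 0.205). The germ cell form Slc25a31 (ANT4) read 2.33, 2.50 and 2.30 in controls and 2.58, 2.61 and 2.28 in knockouts, with overlapping groups (0.11, SE 0.12). Slc25a3, which brings phosphate into the matrix for ATP synthesis, read 7.76, 7.71 and 7.65 in controls and 7.75, 7.85 and 7.95 in knockouts (0.15, SE 0.10, adjusted p = 0.49).

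None of the 4 carboxylate carriers passed. Slc25a10, which exchanges malate and succinate for phosphate, was lower in value without overlap, at 9.00, 8.94 and 9.37 in controls and 8.74, 8.76 and 8.88 in knockouts. Its log2 fold change was -0.31 (SE 0.13, adjusted p = 0.234). Slc25a1, the citrate carrier that supplies carbon for lipid synthesis, overlapped at 7.92, 7.92 and 8.12 against 8.02, 8.12 and 8.01 (0.06, SE 0.10), and its sign turned with listed age as a covariate (-0.08, SE 0.22). Slc25a11, the oxoglutarate carrier of the malate-aspartate shuttle, differed by 0.0017 (SE 0.087). Slc25a21, which carries oxoadipate, differed by -0.18 (SE 0.13).

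Amino acid carriers did not pass either, with 3 of 7 above and 4 below 0 in log2 fold change. Slc25a22, a glutamate carrier, had the largest difference of the group, at 8.08, 7.80 and 7.64 in controls and 8.17, 8.49 and 8.14 in knockouts (0.43, SE 0.15, adjusted p = 0.134). Slc25a38, which brings glycine into the matrix for heme synthesis, was lower in value without overlap, at 5.67, 5.62 and 5.70 against 5.21, 5.34 and 5.45 (-0.33, SE 0.10, adjusted p = 0.0953). Restricting the test to genes above the median level brought it just past the threshold (adjusted p = 0.0496). Slc25a44, which takes up branched-chain amino acids in brown fat, was at -0.20 (SE 0.10) and did not overlap. The aspartate-glutamate carrier Slc25a12 (0.03, SE 0.15), the basic amino acid carriers Slc25a2 (0.04) and Slc25a29 (-0.06), and the glutamate carrier Slc25a18 (-0.11) overlapped between groups.

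Among 7 cofactor carriers, Slc25a32, which serves folate and FAD, had the largest difference. Its values of 6.56, 7.07 and 6.51 in controls and 7.02, 7.33 and 7.55 in knockouts overlapped, since control replicate 2 exceeded knockout replicate 1 (0.59, SE 0.19, adjusted p = 0.106). Without control replicate 2 the difference was 0.77 and passed (adjusted p = 0.0424). Slc25a39, a carrier of glutathione, read 8.20, 8.19 and 8.11 in controls and 8.45, 8.36 and 8.45 in knockouts (0.25, SE 0.09, adjusted p = 0.156), with groups apart. Slc25a16, linked to coenzyme A uptake, was lower in value without overlap (-0.23, SE 0.10, adjusted p = 0.229).

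Slc25a42, which exchanges coenzyme A for adenine nucleotides, differed by 0.24 (SE 0.14) in the probe set that stood for it. Its other probe set differed by 0.45, without overlap of groups. In the fit over every probe set the SE was 0.17 for each of them. The glutathione carrier Slc25a40 (0.01, SE 0.10) and the S-adenosylmethionine carrier Slc25a26 (0.05, SE 0.11) overlapped. The probe set listed for Slc25a51, the NAD carrier, varied most within groups, from 6.30 to 7.69 in controls and from 5.61 to 7.23 in knockouts (-0.50, SE 0.47). Another probe set of the annotation names Slc25a51 together with the integrin gene Itgax, so what this row measures is uncertain.

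The iron carriers (mitoferrins) differed in opposite directions by value, and neither passed. Slc25a28 (mitoferrin-2), the form of most tissues, read 5.99, 5.79 and 6.04 in controls and 6.37, 6.41 and 6.24 in knockouts. With no overlap and a difference of 0.40 (SE 0.11), it had the smallest adjusted p of the members that did not pass (0.0578). It passed with a mean-variance trend and robust prior (0.047) and over genes above the 25th percentile (0.0432) or the median of level (0.0287). Slc25a37 (mitoferrin-1), the erythroid form, overlapped between groups (-0.32, SE 0.14, adjusted p = 0.256). The mean log2 value of 3 erythroid markers (Alas2, Slc4a1 and Epb42) was 4.54 to 5.09 in controls and 4.43 to 5.02 in knockouts, and their part in this difference was not tested. Of the pyrimidine nucleotide carriers, Slc25a33 read 4.63, 5.08 and 4.76 in controls and 4.73, 5.27 and 5.32 in knockouts (0.29, SE 0.18), and -0.26 with listed age as a covariate. Slc25a36 differed by -0.16 (SE 0.09) with groups apart (adjusted p = 0.423).

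Some members lie next to each other in the genome. By gene order in the RefSeq table of build GRCm38.p6, Slc25a23 neighbours Slc25a41, Slc25a24 neighbours Slc25a54 and Slc25a47 neighbours Slc25a29. The log2 fold changes were -1.55 and -0.15 for the first pair, 1.46 and -0.02 for the second and 0.35 and -0.06 for the third. The difference between neighbours was not tested. Of the 7 members with several probe sets, none passed in the probe set that stood for it or, with p-values adjusted over all probe sets, in any other. The probe sets of Slc25a12 and Slc25a40 differed in sign, at differences of -0.23 to 0.03 and of -0.06 to 0.01.

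Other genes of mitochondrial transport were taken as a list of 36 symbols, of which 23 were measured. By limma 0 rose and 2 fell, a share called of 8.7% beside 8.24% over all genes, and at an unadjusted p under 0.05, 2 were higher and 5 lower. The 2 that fell were sideroflexins, a separate family of inner membrane proteins whose best known member, Sfxn1, imports serine. Sfxn2 read 6.61, 6.44 and 6.55 in controls and 5.82, 5.74 and 5.95 in knockouts (-0.70, SE 0.10, adjusted p = 0.0045). Sfxn5 read 5.46, 5.53 and 5.78 in controls and 5.12, 5.13 and 5.03 in knockouts (-0.49, SE 0.11, adjusted p = 0.0319). Sfxn1 was lower in value without overlap and did not pass (-0.32, SE 0.09, adjusted p = 0.0757). Sfxn3 (0.08) and Sfxn4 (0.05) and the carrier relatives Mtch1 (-0.11) and Mtch2 (0.03) overlapped between groups. The median log2 fold change of the list was 0.02. No gene passed among the pyruvate carrier subunit Mpc1 (0.41, SE 0.13, adjusted p = 0.104), the outer membrane channels Vdac1, Vdac2 and Vdac3, 6 genes of calcium transport, 3 of carrier insertion and 3 ABC transporters. With listed age as a covariate neither Sfxn2 (-0.75, SE 0.23, adjusted p = 0.3) nor Sfxn5 (-0.67, SE 0.24, adjusted p = 0.399) passed. Over every probe set neither of them passed (adjusted p = 0.153 and 0.369). Sfxn5 also lost its call in each fit that left out an array other than control replicate 1 (adjusted p = 0.0723 to 0.104).

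**Figure D4:**
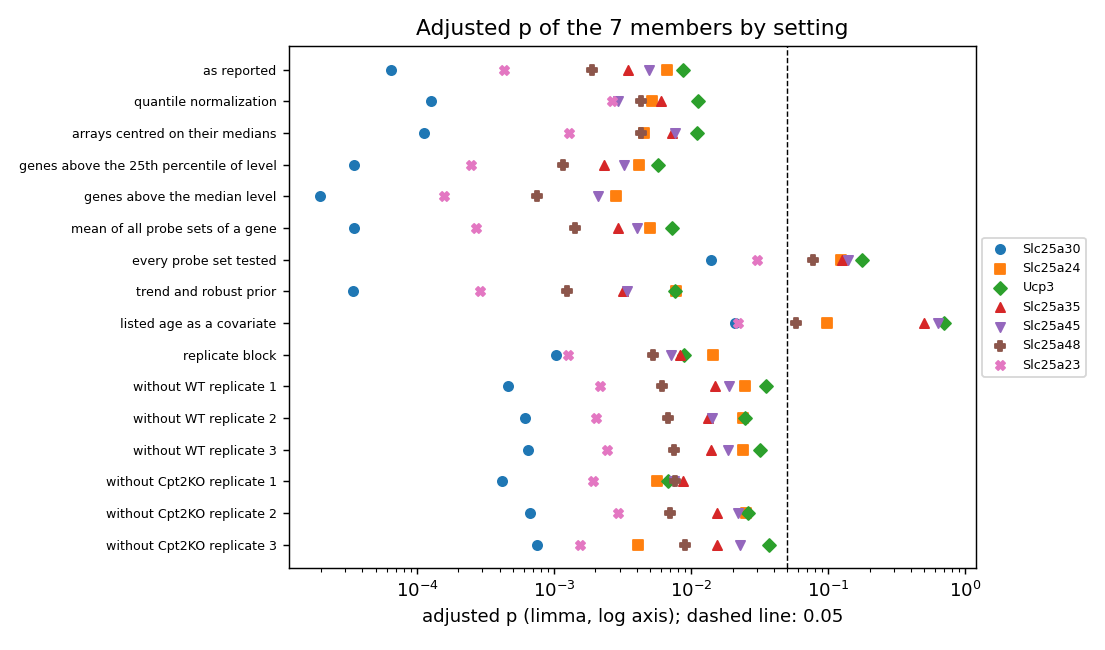
Adjusted p of limma (x axis, log scale, dashed line at 0.05) for the 7 members under the reported setting and 15 alternatives (y axis). All points of Slc25a23 and Slc25a30 lie left of the line, while the other five members lie right of it with listed age as a covariate and with every probe set tested.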

How the data were processed

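The authors deposited 1 table of log2 expression values for 115050 probe sets in 6 livers. Partek, RMA and build mm9 are named for it, without versions, per the submitters' processing notes, and the sources used here give no other options. RMA subtracts background, brings arrays to a common distribution and compresses differences of dim probe sets. Array medians lay between 2.78 and 2.93.

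Probe sets were named from the platform annotation. The 25469 that name 1 gene cover 20242 genes, and where a gene had several, its brightest probe set by the mean over 6 arrays was taken. Knockout and control were compared with limma 3.58.1 in R 4.3.3 (two-sided, no covariate, no filter), with Benjamini-Hochberg adjustment over 20242 genes at a threshold of 0.05. The number of arrays, 3 per group, limits the precision.

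Members, substrate groups and lists were chosen with earlier results of these data known. Genes named by rule were members past the threshold, the largest difference of each substrate group, the 5 members with the highest mean, the ADP/ATP carriers and uncoupling proteins, members with a difference of at least 0.5 and groups apart, and Cpt2. Of the other mitochondrial transport genes the rule named those past the threshold. Other members, other transport genes and marker genes were named after their values were seen. Alternatives were quantile normalization, median centring, 2 filters on level, averaging a gene's probe sets, testing all probe sets separately, a trend and robust prior, listed age, a replicate block, and each array left out in turn.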

Additional observations from a re-analysis of the deposited data

How the results depend on the processing

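Counts of 3 members higher and 4 lower stayed within 1.5 times of these values in the alternatives other than listed age as a covariate and every probe set tested. In each of these both counts were 1, Slc25a30 higher and Slc25a23 lower, with 83 genes changed with listed age and 189 of the genes' probe sets with every probe set tested, against 1667. Cpt2 itself missed the threshold in these fits (adjusted p = 0.0753 and 0.0692), with log2 fold changes of -1.24 and -0.99. Listed age rises with the replicate number within each genotype and leaves 3 residual degrees of freedom, and fitting every probe set changes both the adjustment and the variance prior, with an SE of 0.13 for Slc25a30 against 0.09. All 7 members kept their calls in the 6 fits that left out 1 array, with 3 to 4 members higher, 4 lower and 1036 to 1305 genes changed, the fewest without control replicate 2 (1036) and control replicate 3 (1059). The filter at the median level removed Slc25a35 and Ucp3, which then have no value, while Slc25a28 and Slc25a38 passed there.

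The replicate block kept the 3 and 4 calls and gave 1 lower gene of the other transport list. Deviations of same-numbered mice correlated at 0.071, 0.183 and -0.082, within the range of -0.27 to 0.19 of differently numbered mice. Such correlations with 3 mice per group cannot show whether the replicate numbers pair the mice. Lower genes of the other transport list numbered 4 over genes above the median level, 0 with every probe set and 0 with listed age, against 2, and 1 to 2 when an array was left out. Signs turned in members that had not passed. With listed age as a covariate Slc25a1 was at -0.077, Slc25a33 at -0.26 and Ucp1 at -0.19, and Ucp1 ran from -0.063 to 0.12 without 1 array. Quantile normalization and median centring each turned the sign of Slc25a43 and Slc25a54, whose differences were under 0.02. The number of arrays and the compression of dim probe sets limit what can be detected.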
